A study of Mus musculus with 6 samples.

Results

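This account describes 10 mouse genes of lytic cell death in adult kidney: the gasdermins Gsdmc2, Gsdmc3, Gsdmc4 and Gsdmd, the caspases Casp1, Casp4 and Casp8, and the necroptosis genes Ripk3, Mlkl and Zbp1. They were listed by name, and each was read from the transcript cluster (the array's probe set for 1 transcript unit) that carries a single gene symbol, the brightest where a gene had several. By that rule 9 of the 10 were measured, among 22180 genes in all. Gsdmc4 was not, because its cluster also carries the symbol Gsdmc2. The genes were selected on their role and with their log2 differences between these same arrays already known. The group differences of the 9 genes are therefore a description, and the adjusted p printed beside each one gives its place in the fit over all genes and supports nothing further.

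Gasdermins are proteins whose amino-terminal part, once released by a protease, inserts into the plasma membrane and forms pores. The inflammatory caspases 1 and 4 (mouse Casp4 encodes caspase-11) cut gasdermin D, which leads to the lytic death called pyroptosis and lets interleukin-1 family cytokines leave the cell. Necroptosis is a separate lytic route in which the kinase RIPK3 phosphorylates MLKL, which then permeabilises the membrane. ZBP1, a sensor of Z-form nucleic acids that interferon induces, and death receptors can start it, and caspase-8 holds it back. In the kidney both routes are known from studies of tubular injury. The gasdermin C genes are a tandem family in the mouse and are best known from intestinal epithelium.

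RNA came from divided kidneys of adult mice and was hybridised to Affymetrix Mouse Gene 2.1 ST arrays, 1 per sample. The 3 arrays labelled knockout (1, 3 and 5) were from mice homozygous for floxed Pax2 and Pax8 alleles that carried Rosa26CreER, a ubiquitously placed Cre that tamoxifen activates. The 3 controls (2, 4 and 6) lacked Cre and also received tamoxifen, so no array shows a kidney without the drug, and none shows CreER activity on unfloxed alleles. The labels do not give the floxed status of the controls. All mice had 3 daily injections of 50 mg/kg at 8 weeks of age and 3 more at 10 weeks, and tissue was taken 14 days after the last. They shared a breeder chow from 3 to 12 weeks of age. Each group held 2 females and 1 male, the males being knockout 1 and control 4. The labels do not say that each array is a separate animal. If the 2 females of a group are 1 animal, the p-values rest in part on technical spread.

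The labelled deletion could not be checked from these values. Pax8 was higher on the arrays labelled knockout, at 10.11 to 10.59 against 8.89 to 9.09 log2, a difference of 1.36 ± 0.12 (SE; limma adjusted p = 0.0037). Pax2 stood at 6.25 ± 0.21 against 5.98 ± 0.18 (SD, n = 3 per group) and did not pass. Probes outside the deleted part would check nothing, and every direction here is that of the arrays labelled knockout. Median log2 values lay between 3.81 and 3.87 over the arrays, and proximal tubule genes, which mark kidney, were bright, with none of 12 below the dim limit. That limit, 2.98 log2, is the lower quartile of gene means and serves here as a mark of low signal, not a detection call.

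Of the 9 measured genes, 2 fell on the arrays labelled knockout and none rose, by limma with a Benjamini-Hochberg adjusted p under 0.05 over all 22180 genes. Both falls were in gasdermin C genes. Over all genes 3.08% fell and 4.12% rose, 7.20% together. The other 7 genes had fitted differences above 0, of which 5 had an unadjusted p under 0.05. So did both that fell; over all genes 11.6% had such a p with a positive difference and 10.5% with a negative one. Taken over all 6 arrays, the 9 genes had means above the dim limit, Gsdmc2 only through its controls (2.63 against 4.40 log2). The groups did not overlap for 6 of the 9 genes, 2 lower and 4 higher. For all genes the share without overlap was 10.8% lower and 11.7% higher. The median difference was 0.29 log2 over the 9 genes and -0.01 over all genes. Because the rule's list was made with this contrast in view, nothing is read from these counts.

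**Figure D1:**
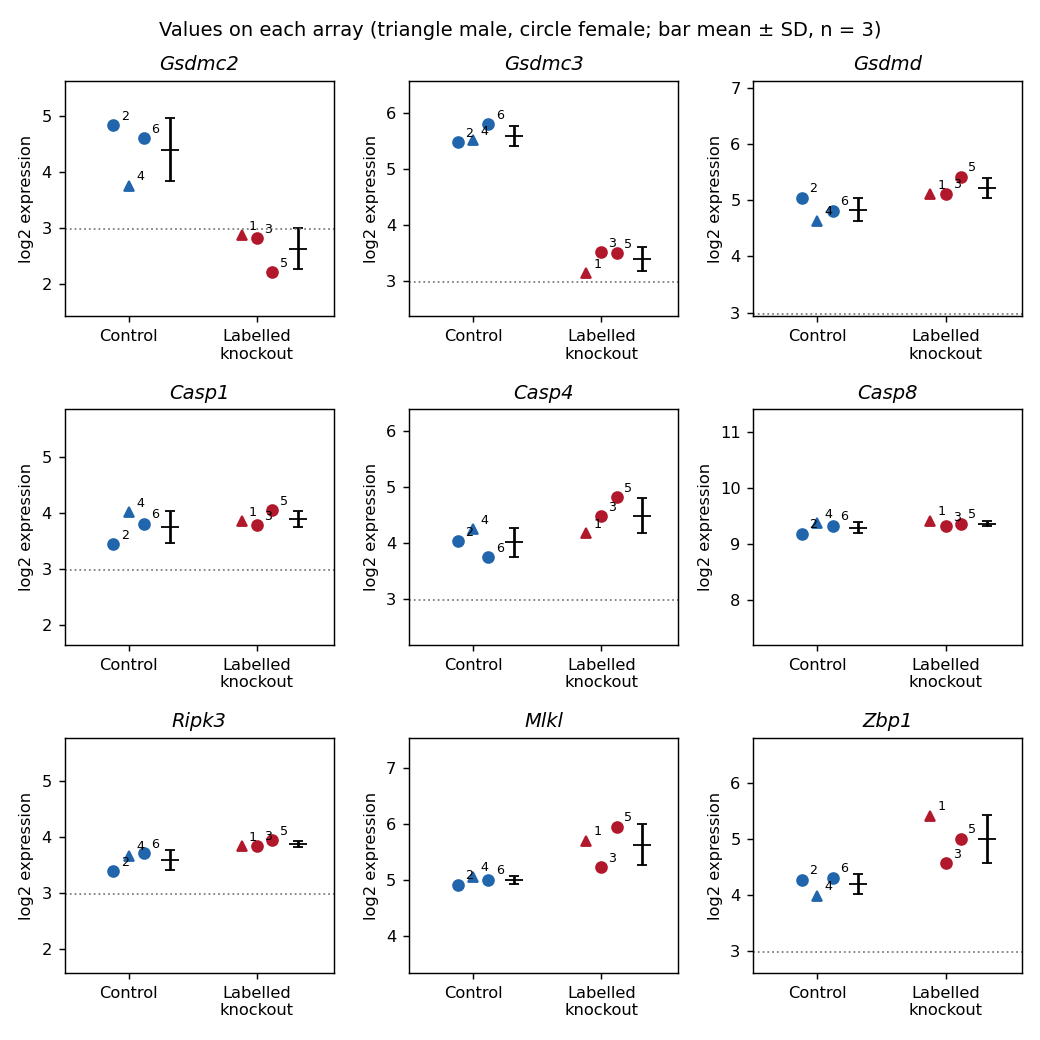
Log2 expression (y axis) of the 9 measured genes on each array, controls in blue and arrays labelled knockout in red, with array numbers beside the points, triangles for males, bars for the mean ± SD (n = 3) and a dotted line at the dim limit of 2.98. Each panel spans the same log2 range: Gsdmc2 and Gsdmc3 are separated widely, while Casp1 and Casp8 overlap.

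Gsdmc3, the gasdermin C gene with the larger fall, read 5.48, 5.51 and 5.80 log2 on controls 2, 4 and 6. On knockouts 1, 3 and 5 it read 3.14, 3.52 and 3.50. All 3 knockout-labelled arrays lay below all 3 controls, with a gap of 1.96 log2 between the groups, and the knockout-labelled values sat just above the dim limit. The group means were 3.39 ± 0.21 and 5.59 ± 0.18 (SD, n = 3). The fitted difference, adjusted for sex, was -2.21 ± 0.11 (SE), a 4.62-fold fall (limma adjusted p = 0.0011). It was the eleventh lowest of all differences. The call held with each array left out in turn (adjusted p between 0.0023 and 0.016).

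Gsdmc2 lies near it in the same tandem family. It read 4.84, 3.76 and 4.61 on controls 2, 4 and 6, and 2.87, 2.82 and 2.21 on knockouts 1, 3 and 5. The groups were 0.89 log2 apart; the lowest control was the male, and every knockout-labelled value was below the dim limit. The fitted difference was -1.77 ± 0.29 (SE; limma adjusted p = 0.020). Counted from the dim limit, the fall of the mean from 4.40 ± 0.57 (SD, n = 3) was at least 2.69-fold. This call was lost without control 2 (adjusted p = 0.081), control 6 (0.088) or knockout 3 (0.059), and when every row of the table was tested (0.084).

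Gsdmc4 has no cluster of its own. The cluster that carries both Gsdmc4 and Gsdmc2 read between 2.20 and 2.61 on all 6 arrays, below the dim limit throughout, so it gives no usable difference for either gene. Probes for these closely related genes may cross-hybridise, and the falls of Gsdmc2 and Gsdmc3 are uncertain as to which copy they come from. Over the 6 arrays the values of Gsdmc2 and Gsdmc3 had a Pearson r of 0.900, which largely restates the split between the groups.

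The region around the 2 genes was read in RefSeq order (assembly GRCm38.p6, chromosome 15), a view chosen after seeing the values. Of the 6 other measured genes from Gsdmc to Asap1, none passed and 1 had an unadjusted p under 0.05. Gsdmc itself was dim, at 2.48 against 2.39 log2. The gasdermin C-like genes Gsdmcl1 and Gsdmcl2 differed by 0.04 ± 0.18 and 0.34 ± 0.15 (SE). Gsdmcl-ps, a pseudogene by its name, was dim in both groups. Cyrib and Asap1, regulators of the actin cytoskeleton at one end of the family, differed by 0.19 ± 0.08 and -0.03 ± 0.10.

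**Figure D2:**
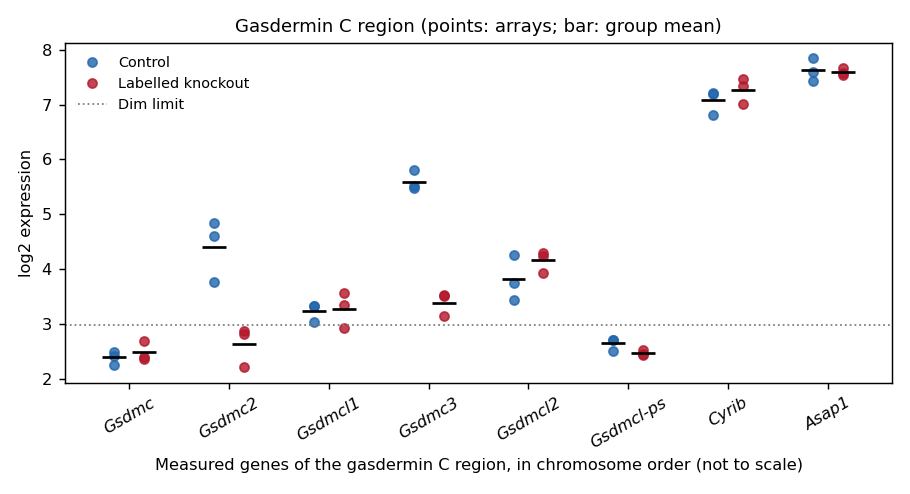
Log2 expression (y axis) on each array for the 8 measured genes of the gasdermin C region, in chromosome order along the x axis and not to scale. Points are arrays, bars are group means and the dotted line is the dim limit of 2.98. Gsdmc2 and Gsdmc3 are the 2 genes whose groups separate widely; levels of different genes are not comparable with each other.

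The promoter window of Gsdmc3 is shown because this gene had the largest difference. It spans 250 bases before to 50 after the start in RefSeq (GRCm38.p6), and capitals mark the motif match.
Gsdmc3 promoter, chr15:63878509-63878808, minus strand: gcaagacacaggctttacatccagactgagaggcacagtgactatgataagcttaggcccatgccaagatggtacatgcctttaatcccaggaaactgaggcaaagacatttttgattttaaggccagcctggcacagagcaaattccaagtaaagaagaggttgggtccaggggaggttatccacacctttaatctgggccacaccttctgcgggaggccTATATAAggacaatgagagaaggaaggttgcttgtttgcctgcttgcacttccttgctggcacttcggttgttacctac
Promoter windows were found for 6 of the 10 genes (Gsdmc3, Casp1, Casp4, Casp8, Ripk3 and Mlkl). They were searched on both strands for 5 motifs, chosen after the sequences had been seen. A TATA-box-like TATATAA starts 29 bases before the start of Gsdmc3 and is found in 3.24% of all 32851 windows. The paired-domain core GCGTGAC is in none of the 6 genes' windows and in 2.09% of all. A match describes letters, not a bound site, and the lack of one says only that these letters are not in this window.

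Among the genes whose values ran most like Gsdmc3 over the 6 arrays was Fxyd4, a sodium pump regulator of the collecting duct. Its Pearson r was 0.997, and it fell by 2.19 on the log2 scale (± 0.08 SE; limma adjusted p = 0.00086). The others were the proprotein convertase Pcsk6 (r of 1 to rounding; -0.79 ± 0.08) and the chromatin cofactor Sap30l (r = 0.996; -0.55 ± 0.08), whose call was lost without control 2, control 6, knockout 3 or knockout 5 (at most 0.066). Closest to Gsdmc2 were Galm (r = 0.994), Spred2 (0.994) and Auh (0.992). These correlations rest on 6 arrays that share 1 split into groups.

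Collecting duct markers changed in both directions on the same arrays. Over all genes 3.08% fell and 4.12% rose. Of 12 principal cell genes 7 fell and 3 rose, with a median of -0.97; the list mean per array was 7.03 to 7.20 against 7.21 to 7.77 log2. Fxyd4, Hsd11b2 (-2.04 ± 0.12, SE), which inactivates glucocorticoids, the peptide hormone gene Apela (-1.46 ± 0.10) and the vasopressin receptor Avpr2 (-1.10 ± 0.12) had the smallest p. The rises were the secreted hormone Stc1 (1.80 ± 0.32) and the keratins Krt19 (1.40 ± 0.15) and Krt18 (1.01 ± 0.13), and the sodium channel subunits Scnn1b (0.16 ± 0.08) and Scnn1g (0.04 ± 0.10) did not pass. Without control 2 the count of 10 calls was 6. Stc1 lost its call without control 2, knockout 5 or control 6 (at most 0.083), and Krt18 without control 2 (0.054). With the clusters averaged Krt18 differed by 0.79 and also lost its call (limma adjusted p = 0.054). Among 11 intercalated cell genes the median was -0.30, with 4 falls and 1 rise, and the list mean per array was 7.06 to 7.24 against 7.69 to 8.15. The falls were in the ammonia transporter genes Rhcg (-1.73 ± 0.14) and Rhbg (-1.87 ± 0.18), the chloride-bicarbonate exchanger Slc4a1 (-2.58 ± 0.21) and the water channel Aqp6 (-1.98 ± 0.17). The rise was in the receptor kinase Kit (0.55 ± 0.08), lost without control 2, knockout 5 or control 6 (at most 0.058). The transcription factor Foxi1 (0.13 ± 0.13) and the proton pump subunits Atp6v0d2 (-0.04 ± 0.09) and Atp6v1g3 (0.04 ± 0.11) did not pass. Nor did Insrr (-0.57 ± 0.13), Slc26a4 (-0.30 ± 0.09) and the pump subunit Atp6v1b1 (-0.25 ± 0.09), each lower with an unadjusted p under 0.05. The genes in these sentences beyond the 4 of smallest p per list were named after their values were seen. None of the 23 genes had a mean below the dim limit. Of 9 urothelial genes 2 rose, the keratins Krt20 (1.24 ± 0.20) and Krt7 (0.54 ± 0.08), and none fell. Krt20 lost its call without control 2 or knockout 5 (adjusted p up to 0.063), and Krt7 in 4 of 6 such fits (up to 0.071). Falls were not particular to the collecting duct. Of 12 proximal tubule genes 7 fell and none rose, with a median of -1.07 (given further below with its limits). In whole tissue, fewer cells of a type and less RNA per cell cannot be told apart. The part of any of these cell types in the gasdermin C values was not tested.

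Gsdmd, which encodes the pore-forming gasdermin D, read 5.05, 4.64 and 4.82 on controls 2, 4 and 6, and 5.11, 5.12 and 5.42 on knockouts 1, 3 and 5. The groups did not overlap, but the gap was 0.06 log2. The fitted difference was 0.38 ± 0.11 (SE; 95% interval 0.11 to 0.65) and did not pass (limma adjusted p = 0.10). A dimmer Gsdmd cluster disagreed, at 3.73 ± 0.03 against 3.81 ± 0.09 (SD, n = 3), a difference of -0.09. With the clusters averaged the difference was 0.15.

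None of the 6 measured genes in the list of other gasdermins passed by limma, and none had an unadjusted p under 0.05. Gsdme, the gasdermin that caspase-3 cuts, differed by -0.04 ± 0.12 (SE). Pjvk, the gasdermin-related pejvakin gene of hearing, differed by -0.54 ± 0.24. The skin gasdermins Gsdma, Gsdma2 and Gsdma3 differed by 0.01, -0.09 and -0.16, the latter pair with means below the dim limit. The median of the 6 differences was -0.06.

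Casp1, the caspase of the canonical inflammasome, did not separate the groups. Its sign rests on control 2, without which the difference was -0.00. It read 3.44, 4.01 and 3.81 on controls 2, 4 and 6, and 3.85, 3.78 and 4.05 on knockouts 1, 3 and 5. The difference was 0.14 ± 0.15 (SE), with a 95% interval from -0.21 to 0.49 (limma adjusted p = 0.65).

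Casp4, which encodes the intracellular lipopolysaccharide sensor caspase-11, read 4.04, 4.25 and 3.75 on the controls and 4.18, 4.48 and 4.82 on knockouts 1, 3 and 5. Male knockout 1 lay below male control 4, so the groups overlapped, while both female knockout-labelled arrays lay above every control. The difference was 0.48 ± 0.19 (SE; 95% interval 0.01 to 0.94; limma adjusted p = 0.22). Casp12, the next gene after Casp4 on chromosome 9 in RefSeq order, rose by 0.58 ± 0.12 (adjusted p = 0.038). That call was lost without control 2, control 6, knockout 3 or knockout 5 (adjusted p up to 0.12).

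The Casp4 window is shown as the 1 window of the 6 with NF-kappaB-like matches, in capitals, for the first of the starts listed for this gene in the same RefSeq table.
Casp4 promoter, chr9:5308599-5308898, plus strand: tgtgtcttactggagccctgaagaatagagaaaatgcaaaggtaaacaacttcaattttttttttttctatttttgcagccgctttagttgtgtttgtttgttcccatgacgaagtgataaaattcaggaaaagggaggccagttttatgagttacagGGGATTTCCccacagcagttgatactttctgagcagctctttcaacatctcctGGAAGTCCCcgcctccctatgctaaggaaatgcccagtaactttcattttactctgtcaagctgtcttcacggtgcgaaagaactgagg
The motif GGGNNTTCC matched as GGGATTTCC, 92 bases before the start, and as GGAAGTCCC, 39 bases before it; the matches do not overlap. It is found in 5.82% of all windows. The core of the interferon-stimulated response element (3.44% of all windows) and the interferon-gamma motif TTCNNNGAA (8.30%) were in none of the 6 windows. No window was given for Zbp1 or Gsdmd.

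Casp8, the apoptotic initiator that also restrains necroptosis, read 9.18, 9.37 and 9.32 on controls 2, 4 and 6, and 9.41, 9.31 and 9.36 on knockouts 1, 3 and 5. The groups overlapped, and the 95% interval of the difference (0.07 ± 0.08, SE) ran from -0.12 to 0.26. The sign is not settled: with each array centred on its median the difference was -0.00. Cflar, the caspase-8-like inhibitor next to Casp8 on chromosome 1, differed by -0.02 ± 0.08.

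Zbp1 had the largest positive difference of the 9 genes. It read 4.28, 3.99 and 4.31 on controls 2, 4 and 6, and 5.42, 4.57 and 5.01 on knockouts 1, 3 and 5. Every knockout-labelled array was above every control, by at least 0.25 log2, with knockout 3 nearest to them. The difference was 0.81 ± 0.21 (SE; 95% interval 0.30 to 1.31) and did not pass (limma adjusted p = 0.073). Without knockout 3 it was 1.02 and passed (adjusted p = 0.045). In the other fits with 1 array left out it did not pass, up to an adjusted p of 0.20.

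Mlkl, the executioner of necroptosis, read 4.92, 5.06 and 5.01 on the controls, a narrow spread (SD 0.07), and 5.70, 5.23 and 5.95 on knockouts 1, 3 and 5. Again the groups did not overlap and knockout 3 lay nearest to the controls. The difference was 0.63 ± 0.18 (SE; 95% interval 0.21 to 1.05; limma adjusted p = 0.088). Without knockout 3 it was 0.84 and passed (adjusted p = 0.031); without the other arrays in turn it did not (up to 0.23).

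Ripk3, the kinase between them, read 3.39, 3.67 and 3.71 on the controls and 3.84, 3.85 and 3.95 on knockouts 1, 3 and 5. The groups were 0.13 log2 apart. The difference of 0.29 ± 0.11 (SE; 95% interval 0.03 to 0.55) did not pass (limma adjusted p = 0.18).

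**Figure D3:**
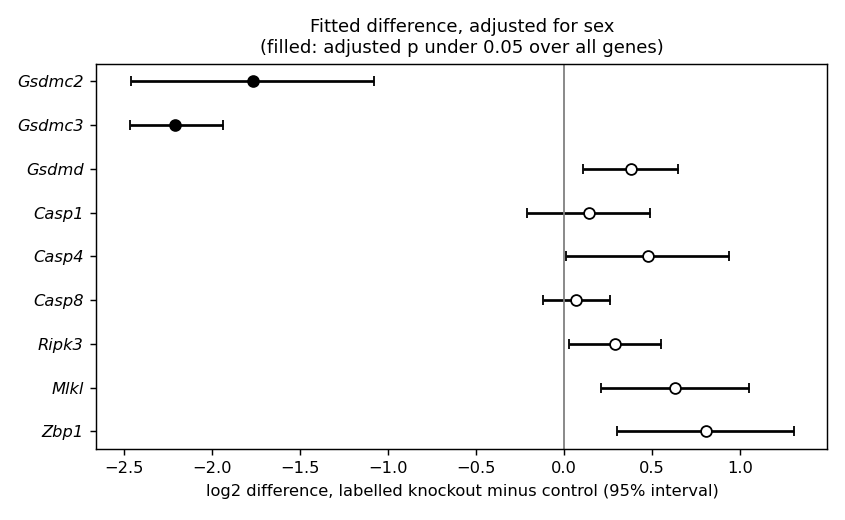
Fitted log2 difference, arrays labelled knockout minus controls and adjusted for sex (x axis), with its 95% interval for each of the 9 genes (y axis). Filled points passed over all genes: Gsdmc2 and Gsdmc3 lie below -1, and the other 7 lie between 0.07 and 0.81.

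By the same measure of likeness, the closest genes to Zbp1 were Ifit1 (r = 0.989) and Isg15 (0.984), both interferon-induced, and the glutamine transporter Slc38a1 (0.980). Ifit1 rose by 1.36 ± 0.28 (SE; limma adjusted p = 0.036), a call that held in 1 of the 6 fits with an array omitted, that without knockout 3 (up to 0.12 in the others), and Isg15 differed by 0.97 ± 0.23 and did not pass (0.054). Closest to Mlkl were the ubiquitin ligase gene Uhrf2 (r = 0.999), Gm5431 (0.992) and the lysozyme gene Lyz1 (0.992). None of those 3 passed. Closest to Gsdmd were Ccnd2, Crip1 and Zdhhc23 (r from 0.992 to 0.996), and closest to Ripk3 were Mbd2, Uevld and Sec61a1 (0.986 to 0.998). Again each r is over 6 arrays, picked as the highest among all genes above the dim limit.

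Genes of the interferon response and of macrophages rose on the arrays labelled knockout, while Gsdmd, Casp1, Casp4, Casp8, Ripk3, Mlkl and Zbp1 did not pass. In size, Zbp1 (0.81) and Mlkl (0.63) differed by more than the interferon median of 0.53, and the others by less. Over all genes 4.12% rose and 3.08% fell. The 23 measured genes of the interferon response had a median of 0.53, with 11 rises and no fall, and the list mean per array was 5.68 to 6.03 against 5.16 to 5.36 log2. The 11 became 2 without control 2, control 6 or knockout 5, and 5 without either male. Those with the smallest p were the chemokine Cxcl10 (1.35 ± 0.13, SE), the membrane tether Bst2 (2.32 ± 0.23), the RNA-activated kinase Eif2ak2 (0.59 ± 0.08) and the transcription factor Irf9 (0.88 ± 0.13). Eif2ak2 and Irf9 lost their calls, at up to 0.062, when control 2, control 6 or knockout 5 was left out. Of 18 macrophage genes 15 rose and none fell (median 1.25), with a list mean of 6.18 to 6.95 against 5.26 to 5.38 and none below the dim limit. Without control 2 or control 6 the 15 became 8. Cd14 (2.00 ± 0.10), Cd68 (1.27 ± 0.11), the complement gene C1qb (between 1.35 and 1.64 with each array left out) and the pore-forming Mpeg1 (1.33 ± 0.14) had the smallest p. Neutrophil genes did not pass in any of 12 cases by limma (1 at an unadjusted p under 0.05; 8 below the dim limit). Of 10 lymphocyte genes 4 rose: Cd4 (0.89 ± 0.12), Jchain (0.92 ± 0.14), Klrb1c (0.50 ± 0.09) and Ighm (0.84 ± 0.17). Each of these 4 lost its call in at least 2 of the 6 refits that omit an array, at 0.055, 0.071, 0.091 and 0.13 in the weakest. The 4 calls became 0 without control 6, 1 without control 2 or knockout 5 and 2 without either male. The groups of Jchain and Ighm overlapped and Klrb1c was dim. Without sex in the model Jchain, Ighm and Klrb1c lost their calls (limma adjusted p = 0.55, 0.5 and 0.052). Males stood above females by 1.85 log2 for Jchain and 1.46 for Ighm.

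Array by array, the interferon list stood 0.77, 0.42 and 0.71 log2 above the control mean on knockouts 1, 3 and 5, lowest on knockout 3. Zbp1 stood 1.22, 0.37 and 0.82 above it, and Mlkl 0.70, 0.23 and 0.95, both also lowest on knockout 3. The macrophage list ran 0.88, 1.13 and 1.65, highest on knockout 5, as were Casp4 (0.16, 0.46 and 0.80), Gsdmd (0.27, 0.29 and 0.59) and Ripk3 (0.25, 0.26 and 0.37). Mlkl too was highest on knockout 5, and so was Casp1 (0.10, 0.03 and 0.30). Zbp1 and the interferon list were highest on knockout 1. These are 3 arrays per gene, and the part of macrophages or of interferon in the values of the caspase and necroptosis genes was not tested.

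**Figure D4:**
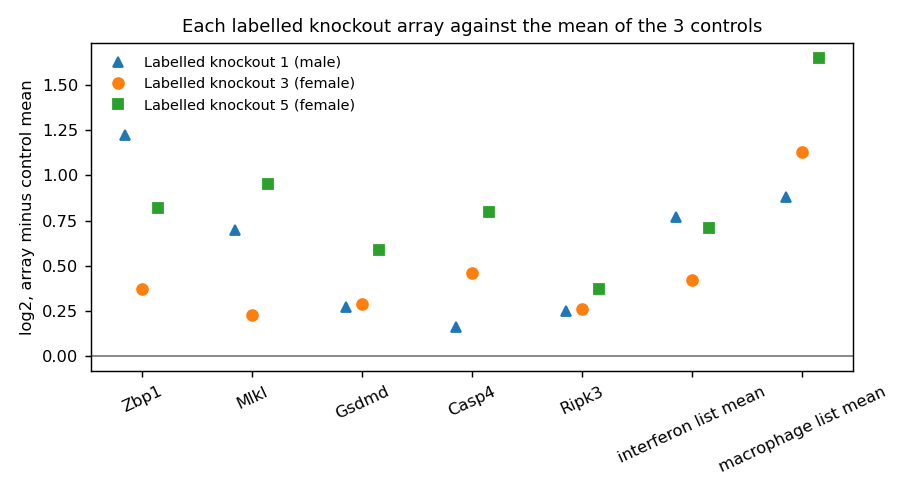
Log2 value on each of the 3 arrays labelled knockout minus the mean of the 3 controls (y axis) for 5 cell death genes and for the mean of the interferon and macrophage lists (x axis). Knockout 3 is lowest for Zbp1, Mlkl and the interferon list. Knockout 5 is highest for Mlkl, Gsdmd, Casp4, Ripk3 and the macrophage list, and knockout 1 for Zbp1 and the interferon list.

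The wider inflammasome and pyroptosis pathway gave 3 rises and 1 fall among 31 measured genes, with a median difference of 0.13. Over all genes 4.12% rose and 3.08% fell. Il18, the epithelial cytokine that caspase-1 matures, read 5.37, 5.45 and 5.37 on knockouts 1, 3 and 5 and 4.14, 4.68 and 4.33 on controls 2, 4 and 6. It rose by 1.02 ± 0.12 (SE, limma adjusted p = 0.0090), without overlap and with every array left out in turn (adjusted p up to 0.048). With every row tested the Il18 call was narrowly lost (limma adjusted p of 0.05 to rounding). The receptor chain Il18r1 rose by 0.56 ± 0.11 (adjusted p = 0.031), but 5 of the 6 fits with 1 array left out, all except that without control 6, lost the call (up to 0.10). The third rise was Casp12. Nlrp6, a sensor expressed in epithelia, fell by 0.73 on the log2 scale (± 0.09 SE; adjusted p = 0.010). Its groups overlapped, since both males lay above the females of their own group (7.22 on knockout 1, 7.88 on control 4). The call was lost without sex in the model (adjusted p = 0.25) and with every row tested (0.055).

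Inflammasome genes that did not pass included the adaptor Pycard, whose 3 knockout-labelled arrays all read 5.90 against 5.43 to 5.60 (0.36 ± 0.08, SE; limma adjusted p = 0.051). The DNA sensor Aim2 differed by 0.57 ± 0.13 (0.053). The sensor Nlrp3 stood lower without overlap, at 3.63 to 3.76 against 3.87 to 4.09 (-0.27 ± 0.09; 0.14). Il1b differed by 0.12 ± 0.09, and Ninj1, which ruptures the membrane at the end of lytic death, by 0.17 ± 0.08. These were named after their values were seen. The count of 4 calls in this list fell to 2 without control 2, knockout 3 or knockout 5. Over all genes the count fell from 1596 to 344, 613 and 529 in the same fits, in that order.

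The necroptosis and death receptor list, 28 measured genes with a median of 0.13, held 5 rises and no fall. Among all genes 4.12% rose and 3.08% fell. The rises were in Birc3 (0.71 ± 0.09, SE; limma adjusted p = 0.0089), a ubiquitin ligase that holds RIPK1 in its survival complex, and Tlr3 (0.57 ± 0.09; 0.016), an RNA sensor that can engage RIPK3. Tnfrsf10b, the TRAIL receptor, rose by 0.78 ± 0.14 (0.025), Tnfaip3, which encodes the ubiquitin editor A20, by 0.50 ± 0.09 (0.027) and the TNF receptor Tnfrsf1a by 0.38 ± 0.08 (0.040). The groups overlapped for Tnfrsf1a and not for the other 4. Tnf itself differed by 0.37 ± 0.09 (0.069) and Fas by 0.32 ± 0.09 (0.087). Fadd, the adaptor that recruits caspase-8, stood lower without overlap (-0.25 ± 0.12; 0.28). These last 3 were named after their values were seen. The 5 calls dropped to 0 without control 2, to 1 without control 6, knockout 3 or knockout 5, and to 3 without either male. In these fits the count over all genes also dropped, from 1596 to between 344 and 1249. Tnfrsf1a and Tnfaip3 lost theirs whichever array was omitted (at most 0.14 and 0.10), Tnfrsf10b and Tlr3 in 4 of 6 such fits (up to 0.096 and 0.071), and Birc3 without control 2 (0.051).

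The apoptosis and ferroptosis lists gave medians near 0. For comparison with the counts below, 4.12% of all genes rose and 3.08% fell. With 1 array left out, the count over all genes dropped from 1596 to between 344 and 1249. Of 25 apoptosis genes 3 rose and 2 fell (median 0.02). The rises were the Bcl-2 family genes Bcl2a1a (0.65 ± 0.10, SE) and Mcl1 (0.66 ± 0.12), which protect, and Pmaip1 (0.78 ± 0.14), which promotes death. Bcl2a1a has near-identical copies and is uncertain. With the clusters averaged Mcl1 differed by 0.36 and lost its call (limma adjusted p = 0.093). Bid, which caspase-8 cuts to reach the mitochondrion, fell by 0.79 on the log2 scale (± 0.08 SE; limma adjusted p = 0.0059), with every array left out in turn (up to 0.035). The nuclease gene Endog had a difference of -0.38 ± 0.08 and also passed (0.045); it was named after its values were seen and lost its call whichever array was omitted (at most 0.15). The 5 apoptosis calls became 1 without control 6, knockout 3 or knockout 5, 2 without control 2 and 3 without either male. Of 20 ferroptosis genes 2 rose, the lipid ligase Acsl4 (0.55 ± 0.09) and the cyclooxygenase Ptgs2 (1.07 ± 0.19), with overlap between the groups for both (median 0.03). Neither passed without control 2, control 6 or knockout 3. The 17 membrane repair genes had a median of 0.25 and held 5 rises and no fall. These included the annexins Anxa1 (0.56 ± 0.08), Anxa5 (0.87 ± 0.13), Anxa2 (0.58 ± 0.09) and Anxa6 (0.59 ± 0.10). The calls of Bcl2a1a, Mcl1, Pmaip1, Acsl4, Ptgs2 and these 4 annexins each were lost in 3 to 5 of the 6 fits with 1 array left out, with adjusted p up to 0.10 (Mcl1). The 5 membrane repair calls became 0 without control 2 or control 6, 1 without knockout 5 and 2 without any other array. Without sex in the model the membrane repair and ferroptosis counts were 0 and the apoptosis count 2. There the 4 annexins had limma adjusted p from 0.054 (Anxa5) to 0.25 (Anxa6). The groups of Anxa6 overlapped.

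**Figure D5:**
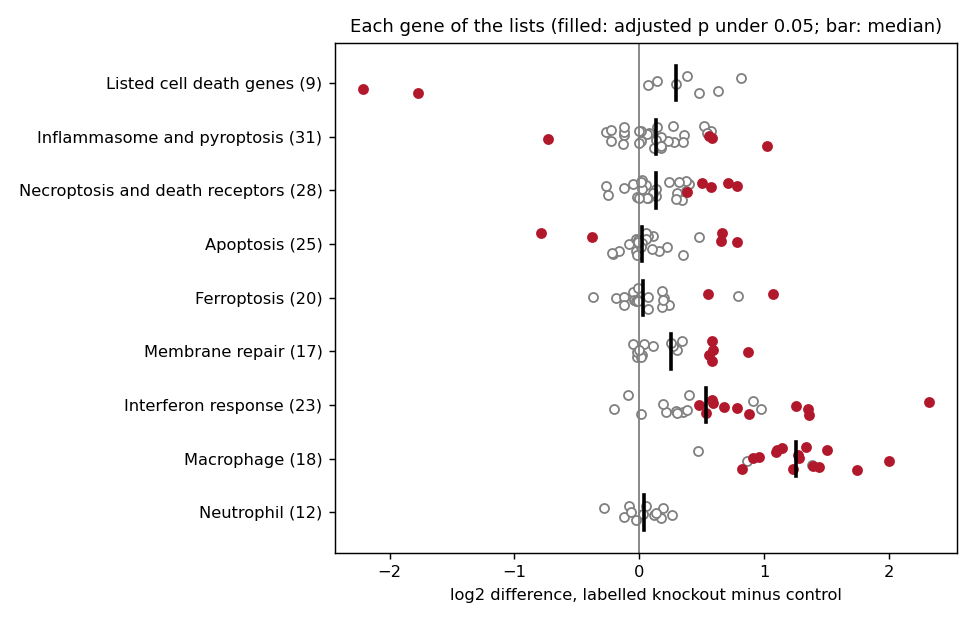
Fitted log2 difference (x axis) of each measured gene in the cell death list and in 8 other lists (y axis, number of genes in brackets); filled points passed over all genes and bars are medians. Medians of the cell death genes and of the inflammasome, necroptosis, apoptosis, ferroptosis and membrane repair lists lie between 0.02 and 0.29, and those of the interferon and macrophage lists are 0.53 and 1.25.

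Sex, which played no part in the choice of the genes, was tested in the same model. None of the 9 genes differed between males and females by limma (adjusted p from 0.36 to 0.94), and none had an unadjusted p under 0.05; over all genes 1.87% passed and 16.1% had an unadjusted p under 0.05. When the genotype difference was allowed to vary by sex (2 residual degrees of freedom, 1 male per group), again none passed (adjusted p from 0.62 to 1; 0.00451% of all genes passed). An unadjusted p under 0.05 was found for 3 of the 9, against 6.99% of all genes. For Gsdmc2 the difference was -2.21 in females and -0.89 in males, for Casp4 0.75 and -0.08, and for Zbp1 0.49 and 1.43. Gsdmc3 (-2.13 and -2.37) and Mlkl (0.63 and 0.64) had like differences in both sexes, though a single male per group leaves these comparisons wide.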

How the data were processed

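RNA of 6 kidney samples was measured on 1 array each. The authors deposited a log2 value for each transcript cluster. The submitters' processing notes list limma, R 3.4.0 and RMA without roles; for filters and genome build they give nothing. Medians were nearly equal over the arrays. The platform annotation gave 1 symbol for 23521 of 41345 clusters, several for 1814 and none for 16010; RefSeq (GRCm38.p6) matched 23328 of the former and changed no symbol. The brightest 1-symbol cluster per gene was used, leaving 22180 genes.

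Differences were fitted with limma 3.58.1 in R 4.3.3 (genotype and sex; default eBayes; residual df 3, total df 6.72). P-values were adjusted by Benjamini-Hochberg across the 22180 genes, and 0.05 was the threshold. The fit was tested on simulated data. Intervals are 95%; errors are moderated SE or SD over 3 arrays, and the 6 arrays limit the precision.

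The genes and lists were chosen with earlier results of these data known. List symbols were updated through RefSeq synonyms, and the 10 genes were taken out of every list. Named were all measured genes of the set, every called gene of the inflammasome and necroptosis lists, up to 4 called genes with the smallest p of other lists, the 3 genes most alike by Pearson r above the dim limit, and Pax2 and Pax8. Any other gene was named after its values were seen. Proximal tubule and adipose lists served as tissue checks. Alternatives were no sex term, females only, each array left out, dim genes left out, clusters averaged, every row tested, median centring, array weights, a trended robust prior and quantile normalization.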

Additional observations from a re-analysis of the deposited data

How the results depend on the processing

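Of 135 refits of the 9 genes under the alternatives, 129 kept their side of the threshold and 4 lost a call (all Gsdmc2). Another 2 gained one (Zbp1 and Mlkl without knockout 3), and 0 of the calls reversed. Direction was not kept in all of the 129: Casp1 without control 2 and Casp8 with median centring went to -0.00. For the called list genes named by the rule above, 160 of 674 refits lost a call and 0 reversed. Called genes named only for likeness or after their values were seen, Endog and Gria4 among them, are not in this count. The lists other than the inflammasome and necroptosis ones kept their count within 1.5 times in 135 of 195 refits. These include the other gasdermin, neutrophil and adipose lists, which had 0 calls as reported and counted as kept wherever they stayed at 0. With every row tested the interferon count was 2, the macrophage count 6, the proximal tubule count 2 and the principal cell count 6; without sex in the model the interferon count was 6. Leaving out a male gives the same fit as females only. With every row tested, 302 rows passed in place of 1596 genes, with 1 of the 9 genes, 0 inflammasome and 1 necroptosis gene; this setting tests more rows. Without sex in the model 471 genes passed, with 1 inflammasome and 2 necroptosis genes, and the trended robust prior gave 7 and 8. Females only gave 3 necroptosis genes. With each array left out in turn, the count over all genes ran from 344 to 1249, that of the 9 genes from 1 to 3, the inflammasome count from 2 to 3 and the necroptosis count from 0 to 3. The cause of these shifts was not tested. The sex and genotype by sex counts stayed at 0 in every refit run. No paired analysis was possible because the groups share no replicate number. Low signal limits Gsdmc2, whose knockout-labelled values are below the dim limit, and the cluster shared with Gsdmc4.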

Other observations

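The nearest measured genes on each side of the 9 genes, 3 per side in RefSeq order (GRCm38.p6), were read after the values were seen. Of 43 such neighbours outside the set 5 passed, 2 higher and 3 lower, where 7.20% of all genes did. Besides Casp12, they were Gria4 before Casp1 (0.38 ± 0.07, SE; limma adjusted p = 0.031), a glutamate receptor subunit, Kbtbd3 (-0.50 ± 0.08; 0.019), Flacc1 near Casp8 (-0.95 ± 0.16; 0.022) and Fa2h beside Mlkl (-0.57 ± 0.10; 0.025), a fatty acid hydroxylase. Gria4, Kbtbd3 and Fa2h lost their calls whichever array was omitted (at most 0.11, 0.080 and 0.097), and Flacc1 without knockout 3 or knockout 5 (0.075 and 0.077). Pck1, the gluconeogenic enzyme gene next to Zbp1, differed by 0.37 ± 0.09 and did not pass (0.065).

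Of 12 proximal tubule genes 7 fell and none rose (median -1.07), with a list mean per array of 8.61 to 9.76 against 10.37 to 10.46. The 7 became 2 without control 2 or control 6, 3 without knockout 5 and 4 without knockout 3. The glucose transporter Slc5a2 (-2.95 ± 0.26, SE), the phosphate transporter Slc34a3 (-3.23 ± 0.31), the amino acid transporter Slc6a19 (-1.85 ± 0.24) and the lactate transporter Slc5a12 (-1.65 ± 0.24) had the smallest p. The call of Slc6a19 was lost at 0.059 or less when control 2 or control 6 was omitted, and that of Slc5a12 at 0.070 or less for these and knockout 5. None of 6 adipose genes passed by limma, and none had an unadjusted p under 0.05. The list was uneven over the controls, with a mean of 6.38, 4.43 and 6.20 log2 on controls 2, 4 and 6. On knockouts 1, 3 and 5 the mean was 5.24, 5.44 and 4.62. Ucp1 read 7.77, 3.53 and 7.53 on controls 2, 4 and 6, and 5.12, 4.74 and 3.87 on knockouts 1, 3 and 5. With females only, 1 adipose gene passed. The part of fat tissue in the values of other genes was not tested.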
